A study of Mus musculus with 12 samples.

Results

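The genes described here are 49 genes of DNA replication and of the G1/S transition of the cell cycle. They were given by name, and each was read from its brightest probe set among those that the platform annotation maps to its symbol alone. All 49 had such a probe set, among 18193 mouse genes that did. They were measured in spleen B cells of C57BL/6 mice carrying Tg(IghelMD4)4Ccg, the MD4 transgene, which gives every B cell one receptor for hen egg lysozyme (HEL). B220+ cells were purified with magnetic beads, cultured in RPMI medium with serum, and stimulated with anti-CD40, IL21 and HEL, which all 6 groups received. The groups, with 2 Affymetrix mouse expression arrays each, were Jmjd2a, Jmjd2c and control at day 3, and Jmjd2a, Jmjd2c and control at day 1. The series set out to find genes that the histone demethylases Jmjd2a (Kdm4a) and Jmjd2c (Kdm4c) regulate during plasma cell differentiation. The labels describe the agents as siJmjd2a, siJmjd2c and sicontrol in one place and as virus with shJmjd2a, shJmjd2c or shcontrol in another. Both day 3 control arrays carry the same description, and their titles number them as replicates. Replicates are titled as biological, with no word on whether cultures or animals were separate, so p-values measure only the spread between these arrays. No age is stated, and cells of day 0 were not analysed here.

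DNA is copied once per cell cycle. In G1 the origin recognition complex, Cdc6 and Cdt1 load the ring of MCM2 to MCM7 onto DNA, and geminin (Gmnn) blocks further loading later in the cycle. At the G1/S transition cyclin E kinases act, E2F factors turn on replication genes, and Cdc45 and the GINS complex join the MCM ring to make the active helicase. Polymerases alpha, delta and epsilon then copy the strands with the clamp PCNA and its loader RFC. Resting spleen B cells seldom divide, and stimulation through CD40 and the B cell receptor brings them into cycle before some become plasma cells.

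The values are log2 values as deposited, and arrays have no read depth, so the small number of arrays limits the precision. Neither Kdm4a nor Kdm4c passed as lower on arrays of its own label, so groups are called by their labels and directions below hold for the labels. Whether samples were exchanged between groups was not tested, and an exchange could change each direction given here. Kdm4a read 8.08 and 8.05 on the Jmjd2a arrays of day 3, against 8.20 and 8.17 on their controls, a log2 difference of -0.12 ± 0.09 (SE, limma adjusted p = 0.36). The day 1 values were 7.94 and 8.09, against 7.90 and 7.92 (0.11 ± 0.09, adjusted p = 0.62). Kdm4c read 7.81 and 7.78 on the Jmjd2c arrays of day 3, against 7.96 and 7.56 on their controls (0.03 ± 0.12, adjusted p = 0.91). The day 1 values were 8.02 and 7.98, against 7.78 and 7.84 (0.19 ± 0.12, adjusted p = 0.41). Day 3 control replicate 2 stood apart, with an interquartile range of 3.08 against 3.38 to 3.63 elsewhere, and 18S ribosomal RNA probe sets at 10.73 against 11.73 to 12.73. Its hybridisation controls read 11.58, against 10.60 to 11.09 on the other arrays. On this array 32 of the 49 genes read lower than on day 3 control replicate 1, by up to 0.56 (Ccne2), and 20 genes differed by over 0.2 between both arrays. In each other group at most 4 genes did. B cell markers were well measured: none of the 7 with a probe set of their own lay under the median of all probe sets on both arrays of any group.

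The replication genes were lower than in controls at day 1 and mostly higher than in controls at day 3, with both labels. At day 3 the Jmjd2a label had 28 of the 49 genes higher and 4 lower, against 13.7% and 7.11% of all 45037 probe sets. The median log2 difference over the 49 genes was 0.30, against -0.04 over all probe sets. The range ran from -0.30 (Rrm1) to 1.04 (Mcm2). The Jmjd2c label had 27 higher and 5 lower, against 9.28% and 5.04% of all probe sets, with a median of 0.27 and a range of -0.34 (Tk1) to 0.99 (Mcm2). Both labels shared 26 of the higher genes and 4 of the lower ones, Rfc2, Rrm1, Rrm2 and Tk1, but they were set against the same control arrays. A call here is an adjusted p under 0.05 in limma, corrected over all probe sets of the comparison. Without day 3 control replicate 2 the counts were 29 higher and 3 lower for Jmjd2a, and 27 higher and 6 lower for Jmjd2c. Leaving out Jmjd2c replicate 1 or replicate 2 left 19 of the 32 calls for that label.

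At day 1 all 49 genes had a negative log2 difference from control with either label. With the Jmjd2a label 34 were called lower and 0 higher, against 3.25% and 4.23% of all probe sets, and 43 had an unadjusted p under 0.05. The median was -0.35, against -0.04 over all probe sets, and the range -0.60 (Cdc6) to -0.08 (Pold1). With the Jmjd2c label 37 were called lower and 0 higher, against 5.69% and 5.32%, and 42 had an unadjusted p under 0.05. Its median was -0.37, against -0.03 over all probe sets, and its range -0.77 (Ccne2) to -0.03 (Pold1). The labels shared 33 of the lower genes. These counts rest on few arrays. For Jmjd2a they were 11 and 10 without control replicate 1 or 2 and 17 without Jmjd2a replicate 1. For Jmjd2c they were 17 and 15 without control replicate 1 or 2 and 23 without Jmjd2c replicate 2. In each of these fits 0 genes were called higher.

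The control cells themselves changed between the days. In control cells 5 genes were higher at day 3 than at day 1 and 32 were lower, against 8.46% and 15.4% of all probe sets, with a median of -0.35. The counts were 5 and 29 without day 3 control replicate 2. Under the Jmjd2a label 28 genes were higher at day 3 and 0 lower, against 2.26% and 3.35%, with a median of 0.31. Under the Jmjd2c label 26 were higher and 0 lower, against 3.27% and 5.36%, with a median of 0.28. The Jmjd2a count was 14 without day 1 replicate 1, 9 and 8 without day 3 replicate 1 or 2, and 43 without day 3 control replicate 2, whose spread enters the shared fit. The Jmjd2c count was 12 without day 1 replicate 2 and 11 without either day 3 replicate. The mean of the 49 genes was 9.94 on both Jmjd2a arrays of day 3, 9.89 and 9.90 on the Jmjd2c arrays, and 9.66 and 9.54 on the controls. At day 1 it was 9.63 on both Jmjd2a arrays, 9.63 and 9.60 on the Jmjd2c arrays, and 9.97 and 9.98 on the controls. In these averages the day 3 labelled arrays lay close to day 1 controls, and this held gene by gene. The day 3 mean of the Jmjd2a label lay within 0.2 of the day 1 control mean in all 49 genes, and that of the Jmjd2c label in 45. How many of all probe sets lay within 0.2 was not counted, so this closeness is not shown to be particular to the 49 genes. The averages of day 1 labelled arrays and day 3 controls were also alike, but their genes were not. With the Jmjd2a label 17 genes of day 1 lay within 0.2 of the day 3 controls, 18 lay above and 14 below, from -0.84 (Tk1) to 0.94 (Cdt1). With the Jmjd2c label 19 lay within 0.2, 15 above and 15 below, from -0.81 (Tk1) to 0.99 (Cdt1). Control cells of day 1 held the highest group mean in 34 genes, and control cells of day 3 the lowest in 22. In an RNA average over a culture, fewer cycling cells and less of a transcript per cell cannot be told apart.

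**Figure D1:**
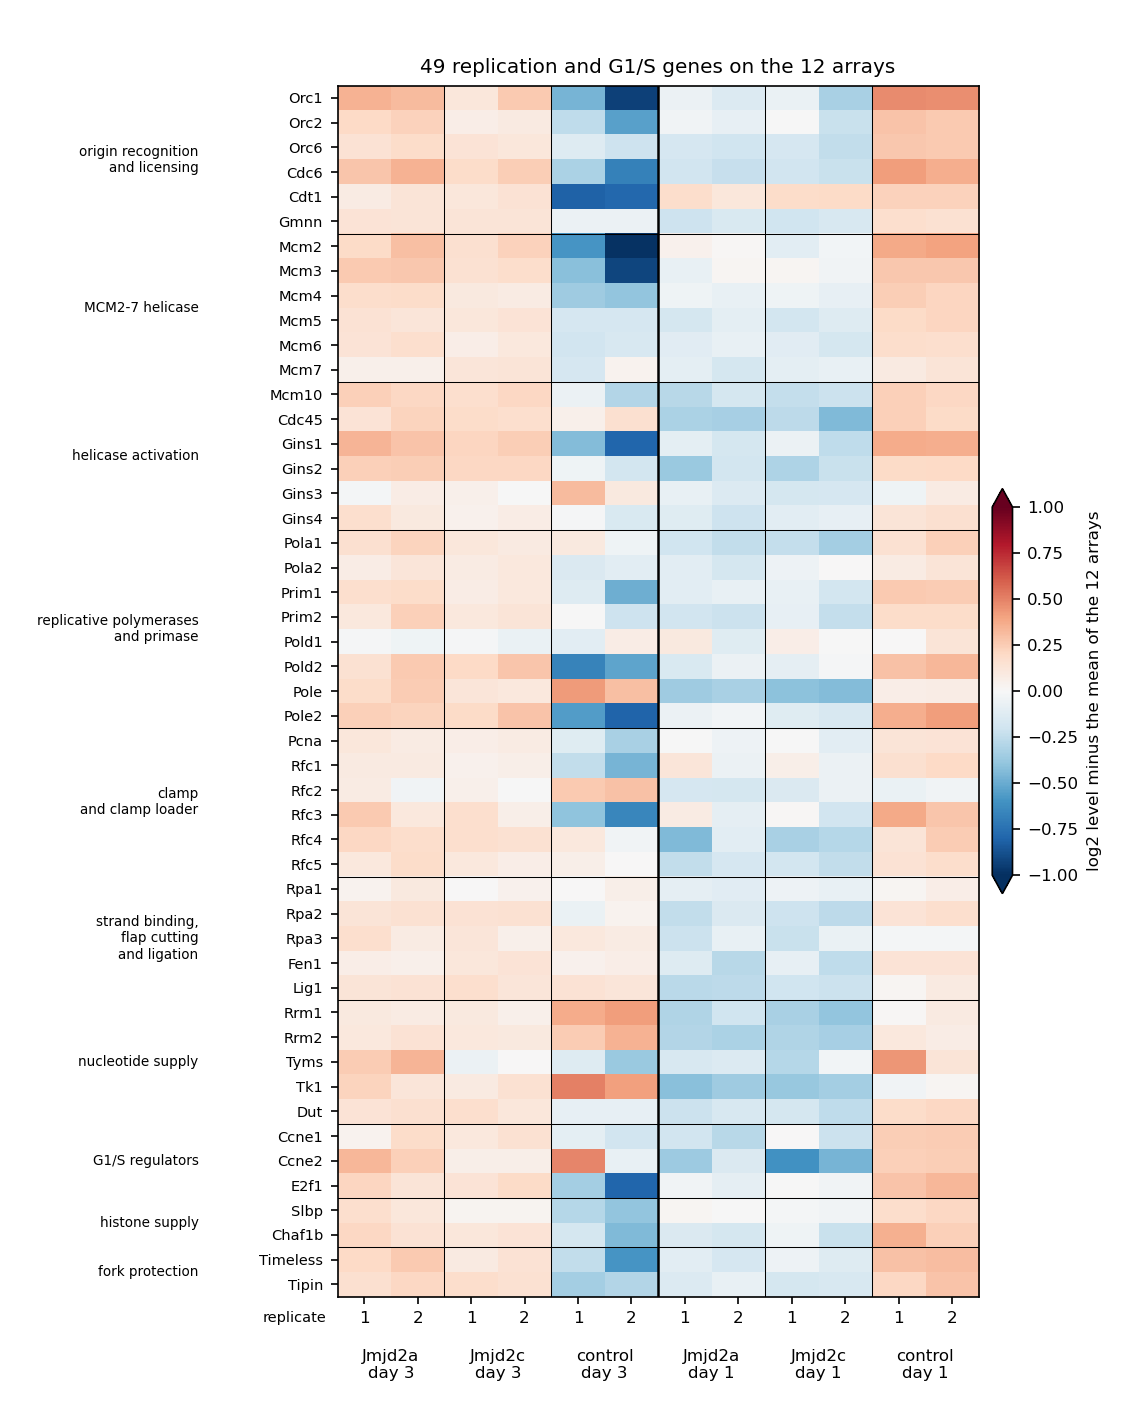
Log2 level of each of the 49 genes on the 12 arrays, minus that gene's mean over the arrays, in rows ordered by role and columns by group (red higher, blue lower, colours capped at 1). Control arrays of day 3 are blue in most rows but plainly red for Rrm1, Rrm2, Tk1, Pole and Rfc2, and the labelled arrays of day 1 are pale blue or near white in most rows.

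Macrophage and NK cell markers moved with these groups, in the opposite direction to most of the replication genes at day 3 and at day 1. The mean over 10 macrophage markers was 6.25 and 6.15 on the Jmjd2a arrays of day 3, 6.37 and 6.20 on the Jmjd2c arrays, and 7.48 and 7.44 on the controls. At day 1 it was 8.31 and 8.56 for Jmjd2a, 8.19 and 9.32 for Jmjd2c, and 5.39 and 5.37 for control. Of these markers 8 and 7 were called lower at day 3 with the Jmjd2a and Jmjd2c labels, and 9 and 10 were called higher at day 1. In day 1 controls C1qa, Vcam1, Slc40a1 and Marco lay under the median of all probe sets on both arrays, and in day 3 controls none of the 10 did. NK cell markers, 5 in number, averaged 5.80 and 5.70 (Jmjd2a), 5.89 and 5.70 (Jmjd2c), and 7.19 and 7.03 (control) at day 3. At day 1 they averaged 7.13 and 6.43, 7.11 and 6.84, and 4.86 and 4.98 for the same groups. The 7 B cell markers averaged 11.29 and 10.97, 11.27 and 11.25, and 10.37 and 10.32 at day 1, with 6 of 7 higher for each label. At day 3 they averaged 10.40 and 10.42, 10.40 and 10.41, and 10.67 and 10.58, with 2 of 7 lower for each label and 0 higher. Of 6 plasma cell markers, 3 were higher and 1 lower at day 1 with each label. At day 3, 1 was higher and 3 were lower with each label. Neutrophil markers differed between replicates, at 5.75 and 8.66 on the Jmjd2a arrays and 5.75 and 9.49 on the Jmjd2c arrays of day 1, against 4.75 and 4.82 on the controls. None of the 5 was called on either day in limma, while 3 and 4 had an unadjusted p under 0.05 at day 1 with the Jmjd2a and Jmjd2c labels, and 0 at day 3. Of 6 T cell markers, 3 were higher at day 1 and 1 lower at day 3 with each label. Of 5 erythroid markers, 2 and 3 were higher at day 1 and none was called at day 3, where 1 had an unadjusted p under 0.05 with each label. Of 5 dendritic cell markers, 1 and 2 were higher at day 1, with medians of 0.01 and 0.02. At day 3 the Jmjd2a label had 2 lower, and the Jmjd2c label had 1 lower and 1 higher. The part of these cells in the replication results was not tested.

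**Figure D2:**
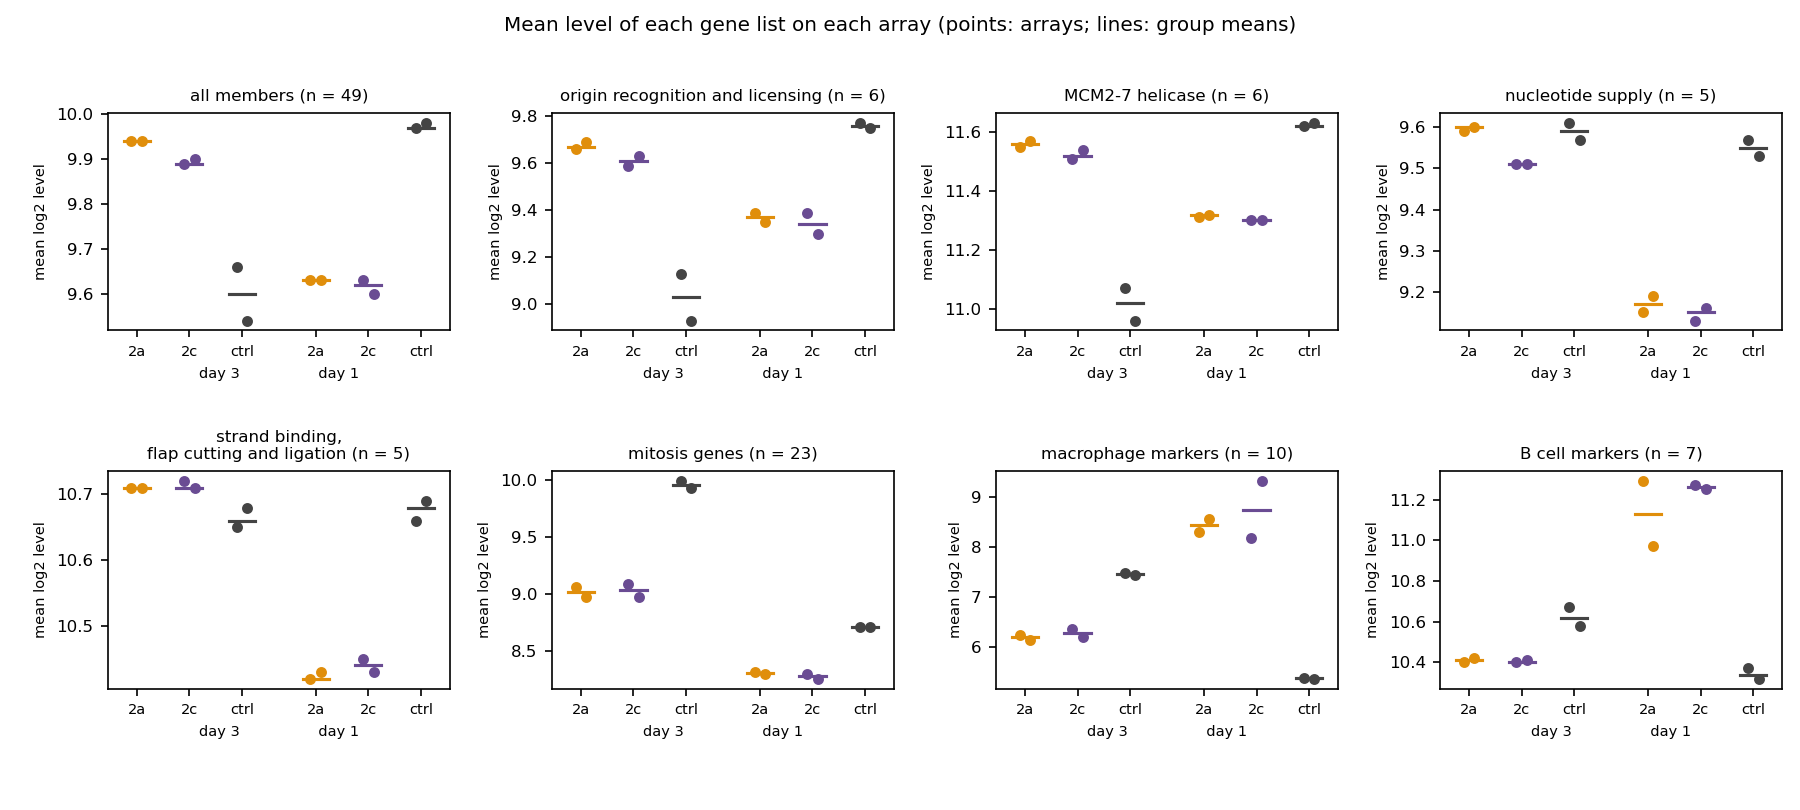
Mean log2 level of 8 gene lists on each array (points) with group means (lines), Jmjd2a, Jmjd2c and control from left to right within day 3 and then day 1, each panel on its own vertical scale. The 49 genes, the licensing factors and the MCM genes have their lowest group mean in day 3 controls, while mitosis genes are highest there at 9.99 and 9.93, and macrophage markers are lowest in day 1 controls at 5.39 and 5.37.

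Since the genes moved together, their promoters were searched for the strings by which E2F factors are known to bind. RefSeq promoters of build GRCm38.p6, running from 250 bases before to 50 bases after a transcript start, were at hand for 39 of the 49 genes, with 45 promoters. Those of Gmnn, Mcm4, Gins1, Gins2, Gins4, Prim2, Pole, Rfc2, Ccne2 and Tipin were not used here. The E2F-type strings were TTTCCCGC and TTTGGCGC and also TTTCGCGC and TTTGCCGC, sought on both strands, where hits on opposite strands can overlap. They occurred in 13 of 45 promoters (28.9%), against 2.26% of all 32851 promoters of the table. The genes were Orc1, Cdc6, Cdt1, Mcm3, Mcm5, Mcm6, Mcm7, Gins3, Pola1, Pold1, Pole2, Rfc3 and Lig1. Promoters of the 49 genes were also richer in G and C, with a median of 60.0% against 52.7%. Among promoters with the GC box GGGCGG, which can serve as a nearer comparison, E2F-type strings occurred in 10 of 31 (32.3%) for these genes, against 4.23% of all 11714. The GC box itself was in 68.9% of these promoters, against 35.7% of all. The box CCAAT was in 55.6% of these promoters, against 37.4% of all. Strings of the cell cycle homology region, TTTGAA and also TTCGAA, were in 7 of 39 genes, against 15 of 21 mitosis genes with a promoter, and in 15.6% of the promoters of these genes against 19.2% of all. A match describes the letters and is not a measured binding site.

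Stretches are shown for every gene with an E2F-type string lying wholly before the transcript start, since these strings were in 28.9% of the promoters of these genes and 2.26% of all, although the GC box and CCAAT were in more of them. Each runs 5′ to 3′ on the strand of the gene, with E2F-type strings of either strand in capitals.
Cdc6: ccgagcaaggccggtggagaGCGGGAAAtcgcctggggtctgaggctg
Orc1: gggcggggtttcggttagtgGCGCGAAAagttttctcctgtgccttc
Mcm5: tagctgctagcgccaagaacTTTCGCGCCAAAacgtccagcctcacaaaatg
Mcm6: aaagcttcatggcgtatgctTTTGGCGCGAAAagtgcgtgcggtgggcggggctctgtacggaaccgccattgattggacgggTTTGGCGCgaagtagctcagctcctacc
Mcm7: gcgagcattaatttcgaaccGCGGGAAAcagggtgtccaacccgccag
Gins3: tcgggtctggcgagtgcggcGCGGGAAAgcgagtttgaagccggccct
Pola1: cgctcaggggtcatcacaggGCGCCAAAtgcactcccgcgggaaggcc
Rfc3: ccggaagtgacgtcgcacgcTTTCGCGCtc
In build GRCm38.p6 they lie at chr11:98907993-98908040, chr4:108579407-108579453, chr8:75109336-75109387 and chr8:95633498-95633545 on the plus strand. On the minus strand they lie at chr1:128359725-128359835, chr5:138172021-138172068, chrX:93632266-93632313 and chr5:151651209-151651238, in the order of the genes above. All are upstream of the transcript start and so outside exons of that transcript. The Mcm5 and first Mcm6 strings are read on both strands, with the strings of opposite strands overlapping. Of the 32 genes lower in controls at day 3, 25 had a promoter and 9 held an E2F-type string. Of the 12 not past the test there, 11 had a promoter and 4 held one. Of the 5 that were higher, 3 had a promoter and 0 held one.

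Origin licensing genes moved together in control cells, where all 6 fell between day 1 and day 3, by 0.22 (Gmnn) to 1.17 (Orc1) on the log2 scale. At day 3 all 6 were higher with each label, and at day 1 4 were lower with the Jmjd2a label and 5 with the Jmjd2c label. Cdt1, which brings the MCM ring to origins, gave the smallest p of the role at day 3. It read 10.92 and 10.97 on the Jmjd2a arrays and 10.95 and 10.98 on the Jmjd2c arrays, against 10.03 and 10.05 on the controls of day 3. The labelled arrays lay well above the controls with no overlap. The log2 difference was 0.91 ± 0.05 with the Jmjd2a label and 0.93 ± 0.05 with the Jmjd2c label, 1.88-fold and 1.90-fold (adjusted p = 9.1e-07 and 1.1e-06). At day 1 Cdt1 read 11.01 and 10.95 on the Jmjd2a arrays and 11.02 and 11.03 on the Jmjd2c arrays, against 11.07 and 11.07 on the controls, all within a narrow band, and neither label passed (-0.09 ± 0.05 and -0.04 ± 0.05). Its day 3 level in controls was 49.1% of their day 1 level.

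Gmnn, the inhibitor of Cdt1, differed from control less than Cdt1 at day 3 and more than Cdt1 at day 1. It read 10.88 and 10.87 on the Jmjd2a arrays and 10.87 and 10.87 on the Jmjd2c arrays, against 10.68 and 10.68 on the controls of day 3, and the difference was 0.19 ± 0.05 for both labels (adjusted p = 0.016 and 0.023). Its day 1 levels were 10.53 and 10.59 on the Jmjd2a arrays and 10.54 and 10.58 on the Jmjd2c arrays, against 10.91 and 10.89 on the controls, so all labelled arrays lay below the controls, with a difference of -0.34 ± 0.05 for both (adjusted p = 0.0014 and 0.001). Orc6, a subunit of the origin recognition complex, read 9.42 and 9.39 on the Jmjd2a arrays and 9.42 and 9.34 on the Jmjd2c arrays, against 9.86 and 9.85 on the controls at day 1. It fell there with both labels, by 0.45 and 0.47, and rose at day 3, by 0.33 and 0.29. Orc1, the subunit whose promoter stretch is shown above, had one of the widest ranges of group means among the 49 genes, next to Mcm2. Its group means were 8.05 ± 0.02 (Jmjd2a), 7.92 ± 0.10 (Jmjd2c) and 7.03 ± 0.34 (control) at day 3, and 7.63 ± 0.06, 7.53 ± 0.18 and 8.20 ± 0.01 at day 1 (SD, n = 2 each). The control spread at day 3 was wide because replicate 2 read 6.79 and replicate 1 read 7.26. These values hold for the brightest Orc1 probe set, which differed from control at day 3 by 1.03 (Jmjd2a) and 0.89 (Jmjd2c). The dimmer Orc1 probe set, of mean level 6.49, read 0.0 and 0.17 there (limma adjusted p = 0.99 and 0.49). In control cells it changed by -0.2 (adjusted p = 0.32). At day 1 it read -0.4 and -0.49 (adjusted p = 0.097 and 0.035), so only the Jmjd2c fall passed. Cdc6, which joins the complex to load MCM, had differences of 0.80 ± 0.10 and 0.71 ± 0.10 at day 3, against -0.60 ± 0.10 and -0.60 ± 0.10 at day 1.

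The MCM ring, the core of the replicative helicase, fell in control cells in all 6 members, by 0.18 (Mcm7) to 1.18 (Mcm2). At day 3, 5 members were higher with the Jmjd2a label and 6 with the Jmjd2c label, and at day 1 5 were lower with each label. The member that did not pass at day 3 was Mcm7, at 0.12 on its brightest probe set. Its probe sets of mean levels 10.78 and 10.27 passed there with the Jmjd2a label (0.45 and 0.4, limma adjusted p = 0.00042 and 0.00041). They also passed with the Jmjd2c label (0.45 and 0.37), and that of mean level 10.22 passed with neither (0.09 and 0.2). Mcm4 read 11.64 and 11.65 on the Jmjd2a arrays and 11.56 and 11.55 on the Jmjd2c arrays, against 11.11 and 11.07 on the controls of day 3. Each pair of arrays agreed closely and the labelled pairs lay above the controls. The differences were 0.56 ± 0.04 and 0.47 ± 0.04 (adjusted p = 5.6e-06 and 2.1e-05). At day 1 Mcm4 read 11.42 and 11.39 on the Jmjd2a arrays and 11.42 and 11.38 on the Jmjd2c arrays, against 11.71 and 11.68 on the controls, with the labelled arrays below both controls, by 0.29 and 0.30. Mcm5 had the smallest p of the ring at day 1, where it read 11.52 and 11.60 on the Jmjd2a arrays and 11.51 and 11.57 on the Jmjd2c arrays, against 11.89 and 11.91 on the controls. Its differences were -0.34 ± 0.04 and -0.36 ± 0.04 at day 1 (adjusted p = 0.0006 and 0.00029), and it rose at day 3, by 0.30 and 0.29. Mcm2 had the largest day 3 differences of the 49 genes, 1.04 ± 0.10 and 0.99 ± 0.10, about the size of its change in control cells. Mcm3, which also rose at day 3 by 0.94 and 0.83, did not pass at day 1 on its brightest probe set (-0.30 ± 0.11 and -0.28 ± 0.11). A dimmer Mcm3 probe set, of mean level 8.28, did pass there with both labels (-0.65 and -0.6, limma adjusted p = 0.015 and 0.017). Another, of mean level 6.72, passed with the Jmjd2c label only (-0.47, adjusted p = 0.038). Those of mean levels 10.74 and 10.32 passed with neither label.

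Helicase activation genes split. Gins1, a subunit of the GINS complex, rose at day 3 and fell at day 1, while Cdc45, the partner of GINS in the active helicase, passed at day 1 and not at day 3. Gins1 read 9.60 and 9.54 on the Jmjd2a arrays and 9.47 and 9.5 on the Jmjd2c arrays, against 8.82 and 8.46 on the controls of day 3, with the labelled arrays far above the controls. The differences were 0.93 ± 0.11 and 0.84 ± 0.11 (1.91-fold and 1.80-fold, adjusted p = 0.0001 and 0.00024). At day 1 it fell by 0.51 and 0.52. Cdc45 read 8.57 and 8.65 on the Jmjd2a arrays and 8.61 and 8.60 on the Jmjd2c arrays, against 8.48 and 8.59 on the controls of day 3, where 1 Jmjd2a array lay below the higher control. Cdc45 levels at day 1 were 8.11 and 8.10 on the Jmjd2a arrays and 8.17 and 7.99 on the Jmjd2c arrays, against 8.67 and 8.62 on the controls. At day 3 the differences were 0.08 ± 0.09 and 0.07 ± 0.09 (adjusted p = 0.58 and 0.69), and at day 1 they were -0.54 ± 0.09 and -0.56 ± 0.09 (adjusted p = 0.0031 and 0.0016). Its levels in control cells of the 2 days differed by -0.11 ± 0.09 (adjusted p = 0.42). These values hold for the brightest Cdc45 probe set. The dimmer one, of mean level 6.11, did not pass at day 1 (-0.1 and -0.05, limma adjusted p = 0.74 and 0.9). Mcm10, which helps start unwinding, and Gins2 rose at day 3 by 0.32 to 0.39 and fell at day 1 by 0.44 to 0.47. Gins4 passed with the Jmjd2a label at day 1 (-0.31, adjusted p = 0.027), and its Jmjd2c difference there of -0.24 did not (adjusted p = 0.062). Gins3 passed in neither comparison on either day (-0.18, -0.18, -0.13 and -0.19).

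Among the polymerase genes Pole2 and Pold2 had the largest day 3 differences. Pole2, the second subunit of polymerase epsilon, read 10.11 and 10.09 on the Jmjd2a arrays and 10.06 and 10.15 on the Jmjd2c arrays, against 9.31 and 9.07 on the controls of day 3, all labelled arrays above both controls. The differences were 0.92 ± 0.08 and 0.92 ± 0.08 (adjusted p = 1.2e-05 and 1.5e-05). On day 1 Pole2 read 9.81 and 9.84 on the Jmjd2a arrays and 9.75 and 9.71 on the Jmjd2c arrays, against 10.23 and 10.29 on the controls, and the differences were -0.44 ± 0.08 and -0.53 ± 0.08 (adjusted p = 0.0053 and 0.0012). Pold2, the second subunit of polymerase delta, rose by 0.80 and 0.84 at day 3 and fell by 0.41 and 0.35 at day 1.

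The catalytic subunit of polymerase epsilon followed its partner Pole2 at day 1, but not at day 3 or in control cells between the days. Pole read 8.95 and 9.02 on the Jmjd2a arrays and 8.89 and 8.87 on the Jmjd2c arrays, against 9.19 and 9.07 on the controls of day 3. Pole levels at day 1 were 8.41 and 8.44 on the Jmjd2a arrays and 8.36 and 8.33 on the Jmjd2c arrays, against 8.83 and 8.84 on the controls. Day 3 controls were above all Jmjd2a and Jmjd2c arrays, and day 1 labelled arrays were the lowest of the 12. The day 3 differences were -0.15 ± 0.08 (adjusted p = 0.2) and -0.25 ± 0.08 (adjusted p = 0.049), the day 1 differences -0.41 ± 0.08 and -0.50 ± 0.08, and the change in control cells 0.29 ± 0.08. Pold1, the catalytic subunit of polymerase delta, stayed within 0.08 of control in these 4 comparisons on its brightest probe set. Its other probe set read 0.52 and 0.47 at day 3 (adjusted p = 0.002 and 0.0049). Pola1, the catalytic subunit of polymerase alpha, fell at day 1 by 0.42 and 0.49 and did not pass at day 3 (0.16 and 0.07). Its partner Prim1, the primase that lays the first RNA bases, passed on both days, at 0.48 and 0.40 on day 3 and -0.35 and -0.39 on day 1. Prim2, the larger primase subunit, fell at day 1 by 0.39 and 0.35, and Pola2 passed with the Jmjd2a label at day 3 (0.23).

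**Figure D3:**
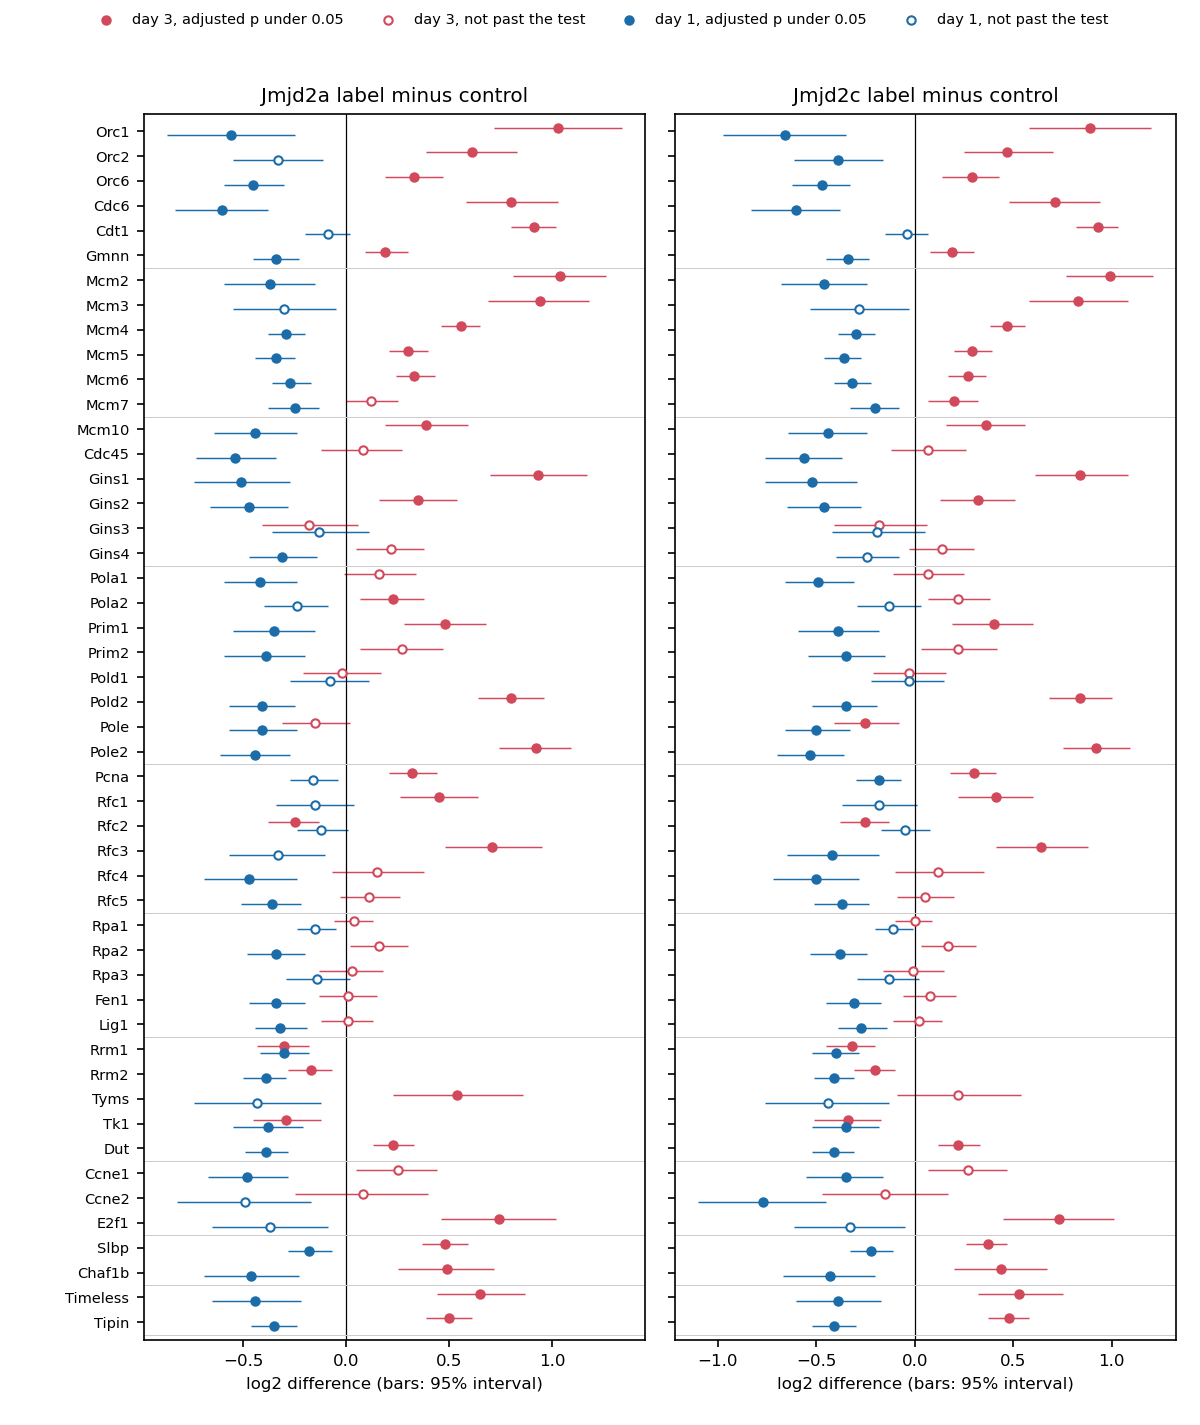
Log2 difference from control of each gene at day 3 (red) and day 1 (blue) with 95% intervals, for the Jmjd2a label (left) and the Jmjd2c label (right), filled where the adjusted p is under 0.05. Most genes have day 1 points left of 0 and day 3 points right of it, and Pole, Rfc2, Gins3, Pold1, Rrm1, Rrm2 and Tk1 have both points left of 0 for each label.

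The clamp Pcna had the highest level of the 49 genes, a mean of 13.34 over the arrays, and changed little on this scale. It rose by 0.32 and 0.30 at day 3, and at day 1 the Jmjd2c difference of -0.18 ± 0.05 passed while the Jmjd2a difference of -0.16 ± 0.05 did not (adjusted p = 0.11). The 5 subunits of the loader that opens the clamp went different ways. Rfc3 read 9.35 and 9.20 on the Jmjd2a arrays and 9.26 and 9.15 on the Jmjd2c arrays, against 8.69 and 8.44 on the controls of day 3, with differences of 0.71 ± 0.11 and 0.64 ± 0.11 (adjusted p = 0.00062 and 0.0016). Its labelled arrays were clear of the controls. Rfc2 read 10.92 and 10.80 on the Jmjd2a arrays and 10.89 and 10.83 on the Jmjd2c arrays, against 11.10 and 11.13 on the controls of day 3. Rfc2 levels at day 1 were 10.67 and 10.66 on the Jmjd2a arrays and 10.69 and 10.78 on the Jmjd2c arrays, against 10.77 and 10.80 on the controls. On day 3 both controls were above every labelled array, a difference of -0.25 for each label (adjusted p = 0.0079 and 0.01), and on day 1 neither label passed (-0.12 and -0.05). The Rfc2 probe set of mean level 8.76 read -0.27 and -0.12 at day 3 (limma adjusted p = 0.036 and 0.41). In control cells it changed by 0.24 (adjusted p = 0.052). The dimmest Rfc2 probe set, of mean level 7.59, read 0.04 and 0.15 at day 3 (adjusted p = 0.87 and 0.54) and -0.03 in control cells (adjusted p = 0.89). Rfc5 read 9.46 and 9.54 on the Jmjd2a arrays and 9.52 and 9.46 on the Jmjd2c arrays, against 9.85 and 9.88 on the controls at day 1. It fell there by 0.36 and 0.37, as did Rfc4 by 0.47 and 0.50. Neither passed at day 3, where Rfc5 differed by 0.11 and 0.05 and Rfc4 by 0.15 and 0.12. Rfc1, the large subunit, rose at day 3 by 0.45 and 0.41.

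On their brightest probe sets, genes for strand binding, flap cutting and ligation gave 0 calls at day 3 with either label in limma. For each label 1 of 5 had an unadjusted p under 0.05. They gave none in control cells between the days either, where 1 of 5 had an unadjusted p under 0.05. The other Fen1 probe set (mean level 10.3) passed at day 3 with the Jmjd2a label (0.41, adjusted p = 0.024). It did not pass with the Jmjd2c label (0.32, adjusted p = 0.093), and it passed in control cells (-0.38, adjusted p = 0.027). At day 1, Rpa2, Fen1 and Lig1 fell with both labels. Rpa2, a subunit of the protein that coats single strands, read 10.02 and 10.05 on the Jmjd2a arrays and 10.04 and 10.05 on the Jmjd2c arrays, against 9.83 and 9.93 on the controls of day 3, where the groups nearly met. Rpa2 levels at day 1 were 9.65 and 9.75 on the Jmjd2a arrays and 9.69 and 9.63 on the Jmjd2c arrays, against 10.03 and 10.06 on the controls. The differences were 0.16 ± 0.07 and 0.17 ± 0.07 at day 3 (adjusted p = 0.11 and 0.12), and -0.34 ± 0.07 and -0.38 ± 0.07 at day 1 (adjusted p = 0.0074 and 0.0027). Lig1, the ligase that joins the pieces of the lagging strand, read 9.73 and 9.74 on the Jmjd2a arrays and 9.80 and 9.78 on the Jmjd2c arrays, against 10.02 and 10.09 on the controls at day 1, with all labelled arrays lower. Its differences were -0.32 ± 0.06 and -0.27 ± 0.06 (adjusted p = 0.0063 and 0.012), against 0.01 and 0.02 at day 3. Fen1, which trims the flap before ligation, fell by 0.34 and 0.31 at day 1 on its brightest probe set. On its other probe set it did not pass there (-0.36 and -0.36, adjusted p = 0.085 and 0.064). Rpa1 and Rpa3 passed in neither comparison on either day.

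Nucleotide supply held 3 genes that went against the rest. Rrm1 and Rrm2, the subunits of ribonucleotide reductase, and Tk1, which salvages thymidine, were lower with both labels on both days and rose in control cells between the days. Rrm1 read 10.98 and 10.96 on the Jmjd2a arrays and 10.98 and 10.93 on the Jmjd2c arrays, against 11.25 and 11.30 on the controls of day 3. Rrm1 levels at day 1 were 10.58 and 10.68 on the Jmjd2a arrays and 10.56 and 10.49 on the Jmjd2c arrays, against 10.89 and 10.97 on the controls. Labelled arrays were below the controls of their day throughout, by 0.30 and 0.32 at day 3 (adjusted p = 0.0026 and 0.0021) and by 0.30 and 0.40 at day 1. Rrm2 read 11.34 and 11.38 on the Jmjd2a arrays and 11.34 and 11.33 on the Jmjd2c arrays, against 11.49 and 11.58 on the controls of day 3. Rrm2 levels at day 1 were 10.94 and 10.92 on the Jmjd2a arrays and 10.93 and 10.90 on the Jmjd2c arrays, against 11.34 and 11.31 on the controls, and on each day all labelled arrays were below the controls. Its differences were -0.17 ± 0.05 and -0.20 ± 0.05 at day 3, and -0.39 ± 0.05 and -0.41 ± 0.05 at day 1. The dimmer Rrm2 probe sets, of mean levels 10.3 and 9.92, did not pass at day 3 with the Jmjd2a label (-0.1 and -0.15, adjusted p = 0.28 and 0.14). With the Jmjd2c label they read -0.19 and -0.24 (adjusted p = 0.073 and 0.031), and in control cells 0.19 and 0.19 (adjusted p = 0.046 and 0.061). Tk1 read 9.18 and 9.08 on the Jmjd2a arrays and 9.05 and 9.11 on the Jmjd2c arrays, against 9.46 and 9.37 on the controls of day 3. Tk1 levels at day 1 were 8.54 and 8.60 on the Jmjd2a arrays and 8.58 and 8.62 on the Jmjd2c arrays, against 8.92 and 8.98 on the controls. Its differences were -0.29 ± 0.08 and -0.34 ± 0.08 (adjusted p = 0.021 and 0.011) at day 3, and -0.38 ± 0.08 and -0.35 ± 0.08 at day 1. In control cells the 3 genes rose by 0.35, 0.21 and 0.46. Averaged with its dimmer probe sets, of mean levels 9.73 and 2.62, Rrm1 did not pass at day 1 (-0.19 and -0.25, adjusted p = 0.2 and 0.07), with the Jmjd2a label at day 3 (-0.13, adjusted p = 0.25) or in control cells (0.2, adjusted p = 0.082).

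Dut, which clears dUTP, went with the majority. It read 11.35 and 11.37 on the Jmjd2a arrays and 11.38 and 11.33 on the Jmjd2c arrays, against 11.13 and 11.13 on the controls of day 3. Dut levels at day 1 were 11.00 and 11.05 on the Jmjd2a arrays and 11.04 and 10.96 on the Jmjd2c arrays, against 11.40 and 11.42 on the controls, and on neither day did labelled arrays and controls overlap. The differences were 0.23 ± 0.05 and 0.22 ± 0.05 at day 3 (adjusted p = 0.0046 and 0.0071), and -0.39 ± 0.05 and -0.41 ± 0.05 at day 1 (adjusted p = 0.00043 and 0.00019). Averaged over all its probe sets, Dut did not pass at day 1 (-0.15 and -0.18, adjusted p = 0.41 and 0.29). Tyms, the thymidylate synthase, had a mean level of 4.86, under the 5.22 median of all probe sets, while the next lowest of the 49 genes was at 7.06. It passed with the Jmjd2a label at day 3 (0.54 ± 0.14), and its 3 dimmer probe sets did not.

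Of the G1/S regulators, E2f1, the factor that activates many replication genes, read 7.71 and 7.62 on the Jmjd2a arrays and 7.63 and 7.68 on the Jmjd2c arrays, against 7.15 and 6.70 on the controls of day 3. The controls were the lowest and differed between themselves by nearly as much as the labels differed from the nearer one. The differences were 0.74 ± 0.13 and 0.73 ± 0.13 (adjusted p = 0.0016 and 0.0022), and at day 1 they were -0.37 ± 0.13 and -0.33 ± 0.13 (adjusted p = 0.12 and 0.15). Ccne1, a cyclin E, read 9.07 and 8.98 on the Jmjd2a arrays and 9.26 and 9.04 on the Jmjd2c arrays, against 9.5 and 9.51 on the controls at day 1, all labelled arrays below the controls. It fell there by 0.48 and 0.35, and at day 3 it differed by 0.25 ± 0.09 and 0.27 ± 0.09 (adjusted p = 0.07 and 0.068). The other Ccne1 probe set (mean level 8.44) passed at day 3 with both labels (0.48 and 0.45, adjusted p = 0.011 and 0.02). Ccne2, the other cyclin E, read 8.49 and 8.39 on the Jmjd2a arrays and 8.21 and 8.21 on the Jmjd2c arrays, against 8.64 and 8.08 on the controls of day 3, where the controls straddled the labelled arrays. At day 1 it read 7.79 and 8.01 on the Jmjd2a arrays and 7.55 and 7.69 on the Jmjd2c arrays, against 8.39 and 8.40 on the controls, and the Jmjd2c difference of -0.77 ± 0.15 was the largest fall of that day (58.5% of control, adjusted p = 0.0057). The Jmjd2a difference of -0.49 ± 0.15 did not pass (adjusted p = 0.07).

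The genes for histone supply and fork protection all rose at day 3 and fell at day 1 with both labels. Slbp, which binds the stem-loop of replication-dependent histone mRNAs, read 11.53 and 11.48 on the Jmjd2a arrays and 11.39 and 11.39 on the Jmjd2c arrays, against 11.08 and 10.97 on the controls of day 3. Its differences were 0.48 ± 0.05 and 0.37 ± 0.05 (adjusted p = 3.8e-05 and 0.00029), with no overlap, against -0.18 and -0.22 at day 1. Chaf1b, a subunit of the chromatin assembly factor that deposits new histones, read 7.95 and 7.92 on the Jmjd2a arrays and 8.05 and 7.87 on the Jmjd2c arrays, against 8.45 and 8.33 on the controls at day 1. It differed there by -0.46 and -0.43, against 0.49 and 0.44 at day 3. Tipin, which with Timeless steadies the fork, read 11.32 and 11.36 on the Jmjd2a arrays and 11.33 and 11.31 on the Jmjd2c arrays, against 10.82 and 10.86 on the controls of day 3. Tipin levels at day 1 were 11.02 and 11.08 on the Jmjd2a arrays and 10.98 and 11.00 on the Jmjd2c arrays, against 11.36 and 11.44 on the controls. Labelled arrays were above the controls on day 3 and below them on day 1, with differences of 0.50 and 0.48 and of -0.35 and -0.41 (adjusted p = 3.1e-05, 5.2e-05, 0.0011 and 0.00026). Timeless rose by 0.65 and 0.53 and fell by 0.44 and 0.39.

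The difference between the days was tested itself, as the day 3 difference from control minus the day 1 difference. With the Jmjd2a label 40 of the 49 genes were higher and 0 lower, against 12% and 6.36% of all probe sets, with a median of 0.62 and a range of -0.13 (Rfc2) to 1.59 (Orc1). With the Jmjd2c label 39 were higher and 0 lower, against 10.7% and 6.84%, with a median of 0.62 and a range of -0.21 (Rfc2) to 1.55 (Orc1). These counts stayed between 36 and 42 and between 35 and 41 when any 1 array of the comparison was left out. Rrm2 passed with the Jmjd2a label (0.22) but had an adjusted p of 0.054 with the Jmjd2c label (0.21). The dimmer Orc1 probe set gave smaller values than the brightest, 0.41 for Jmjd2a (limma adjusted p = 0.18) and 0.66 for Jmjd2c (adjusted p = 0.029). The genes that passed with neither label were Gins3, Pold1, Pole, Rfc2, Rpa1, Rpa3, Rrm1, Tk1 and Ccne2. In 9 genes the day 1 fall passed with both labels and the day 3 difference with neither: Cdc45, Pola1, Prim2, Rfc4, Rfc5, Rpa2, Fen1, Lig1 and Ccne1. Each of these 9 was past the test of the difference between the days with both labels. The 9 hold for the brightest probe sets. At day 1 the other probe set passed with neither label for Cdc45 (-0.1 and -0.05, limma adjusted p = 0.74 and 0.9). The same held for Fen1 (-0.36 and -0.36, adjusted p = 0.085 and 0.064) and for Pola1, whose other probe set was dim (mean level 3.4). The other Ccne1 probe set passed at day 1 with the Jmjd2a label (-0.42, adjusted p = 0.047) and not with the Jmjd2c label (-0.34, adjusted p = 0.085). At day 3 another probe set passed for Ccne1 with both labels (0.48 and 0.45, limma adjusted p = 0.011 and 0.02). With the Jmjd2a label another also passed for Fen1 (0.41, adjusted p = 0.024) and for Prim2 (0.29, adjusted p = 0.04), but not with the Jmjd2c label.

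The labels did not differ from one another in these genes past the test. Jmjd2a against Jmjd2c gave 0 of 49 calls on day 3 and on day 1 in limma, against 0% of all probe sets each time. At an unadjusted p under 0.05, there were 2 on day 3 and 0 on day 1. The 95% intervals of the log2 differences lay between -0.27 (E2f1) and 0.63 (Tyms) on day 3, and between -0.33 (E2f1) and 0.60 (Ccne2) on day 1. They lay wholly within 0.3 of 0 for 39 genes on day 3 and 41 on day 1, so a difference of that size was not excluded for the others.

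In control cells the size of the change between the days varied with the role. The median change was -0.78 over the licensing factors, -0.64 over fork protection and -0.49 over the MCM ring, against -0.01 over strand binding, flap cutting and ligation and 0.21 over nucleotide supply. These medians describe the lists and were not tested against one another. All 23 measured mitosis genes rose in control cells at the same time, by 0.55 to 2.24. Their mean was 9.06 and 8.98 on the Jmjd2a arrays of day 3, 9.09 and 8.98 on the Jmjd2c arrays, and 9.99 and 9.93 on the controls. At day 1 it was 8.32 and 8.30, 8.30 and 8.26, and 8.71 and 8.71 for the same groups. So the mitosis genes were lower with each label on day 3 (23 of 23, medians -0.96 and -0.92) and on day 1 (16 and 19 of 23, medians -0.39 and -0.40). Under both labels all 23 rose between the days.

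**Figure D4:**
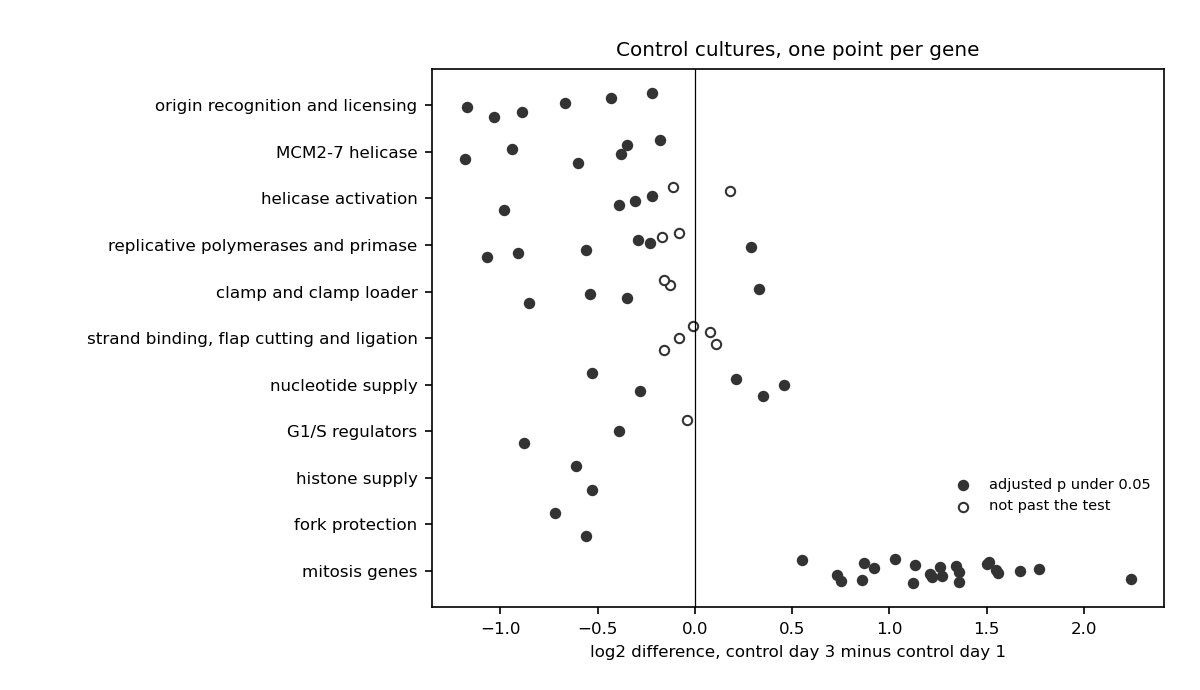
Log2 difference between control cells of day 3 and of day 1, 1 point per gene, for each role of the 49 genes and for 23 mitosis genes, filled where the adjusted p is under 0.05. Licensing and MCM genes lie left of 0 (down to -1.18 for Mcm2), the filled points of Rrm1, Rrm2, Tk1, Pole and Rfc2 lie right of it, and every mitosis gene lies right of it (0.55 to 2.24).

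Related genes that are not among the 49 were read in the same way. Their lists were chosen with earlier results of these data known, so they are not an independent check of the pattern. Of 24 other replication factors 14 rose and 2 fell with the Jmjd2a label at day 3, 12 and 2 with the Jmjd2c label, and 14 fell and 2 rose in control cells. At day 1, 9 fell with the Jmjd2a label, and 12 fell and 1 rose with the Jmjd2c label. Over all probe sets 13.7% were higher and 7.11% lower at day 3 with the Jmjd2a label, 9.28% and 5.04% with the Jmjd2c label, and 8.46% and 15.4% in control cells. At day 1 the lower share of all probe sets was 3.25% with the Jmjd2a label and 5.69% with the Jmjd2c label, and these shares are the background for each list that follows. Pole4, a small subunit of polymerase epsilon, differed by 0.87 ± 0.07 and 0.84 ± 0.07 at day 3 (adjusted p = 5.8e-06 and 8.7e-06) and by -1.0 ± 0.07 in control cells. Of 20 measured genes of nucleotide synthesis, 16 and 14 rose at day 3 and none fell, and 16 fell in control cells. The genes of the E2F, RB and G1/S cyclin-kinase list went both ways: 9 of 26 rose and 4 fell with the Jmjd2a label at day 3, and 9 rose and 7 fell with the Jmjd2c label. Within it Ccnd2, a D-type cyclin of G1, rose by 0.87 and 0.84 at day 3 and fell by 1.02 in control cells. Ccna2, the cyclin of S phase and G2, did the reverse, with differences of -0.99 and -0.98 at day 3 and 1.24 in control cells. It also fell at day 1, by 0.45 and 0.42. Of 9 measured histone chaperones and chromatin replication genes, 4 rose at day 3 with each label, while 0 fell with Jmjd2a and 1 with Jmjd2c. Uhrf1, which carries DNA methylation through replication, rose by 0.78 and 0.70. At day 1 the nucleotide synthesis genes averaged 10.12 (Jmjd2a), 10.11 (Jmjd2c) and 10.4 (control). The E2F, RB and G1/S cyclin-kinase list averaged 8.53, 8.5 and 8.65 for the same groups, and the histone chaperones and chromatin replication genes 10.66, 10.64 and 10.94.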

How the data were processed

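The log2 probe set values were deposited by the authors as 1 table of 12 arrays. Per the labels' protocols, total RNA was extracted with TRIzol and hybridised as biotin-labelled cRNA, while their normalization was not given in the sources used here. Of 45101 probe sets, 64 controls were left out and 45037 tested. Each gene was read from its brightest probe set mapped to it alone. One limma model (limma 3.58.1, R 4.3.3) with 6 group means and an intensity trend was fitted to the values as deposited, leaving 6 residual degrees of freedom. It gave 11 comparisons, with Benjamini-Hochberg adjustment over the 45037 probe sets of each. Same-numbered replicates correlated at -0.073 to 0.392 within a day, the highest value being that of Jmjd2a against Jmjd2c at day 1. No pairing was used in the main fit. With the replicate number as a block, that comparison also gave 0 calls among the 49 genes. The genes, the lists of related genes and the markers were chosen with earlier results of these data known. Named genes outside the 49 were the 2 of smallest p of a list in a comparison, and per-array values are printed for the smallest p of each role and for genes that went against most. Alternatives were quantile normalization, centring, leaving out dim probe sets, no trend, array weights, means over probe sets, an adjusted p under 0.10, a replicate block, arrays of 1 day, and leaving out each array in turn. Promoter sequences are from RefSeq, build GRCm38.p6. Python 3.11.15 and matplotlib 3.10.9 made the figures.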

Additional observations from a re-analysis of the deposited data

Results flagged for a closer look

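For both labels the difference from control at day 3 was unlike that at day 1, by the test of the difference itself in limma. It passed in 40 genes with the Jmjd2a label and in 39 with the Jmjd2c label. The gene of smallest p of each role in that test gave the following values, Jmjd2a label and then Jmjd2c label, as the day 3 log2 difference minus the day 1 log2 difference. Among licensing and helicase genes, Cdt1 was at 0.99 and 0.97, Mcm4 at 0.84 and 0.76, and Gins1 at 1.44 and 1.37. Among genes of the fork machinery, Pole2 was at 1.35 and 1.45, Rfc3 at 1.05 and 1.06, and Rpa2 at 0.50 and 0.55. Dut of nucleotide supply was at 0.62 and 0.63, E2f1 at 1.12 and 1.06, Slbp at 0.66 and 0.59, and Tipin at 0.85 and 0.89. Both labels were compared with the same control arrays, and day 3 control replicate 2, which stood apart, enters each value. Without that array 41 and 39 genes passed.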

How the results depend on the processing

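The medians over the 49 genes kept their sign under every alternative for the comparisons with control, and the counts of genes past the test moved more than the values. Without the intensity trend the counts were 21 for the Jmjd2a label at day 1, and 12 and 16 for the change between days under the Jmjd2a and Jmjd2c labels. With array weights the Jmjd2c count at day 3 was 21. Leaving out 1 array gave 22 to 37 genes (Jmjd2a) and 19 to 33 (Jmjd2c) at day 3, and 10 to 43 and 15 to 41 at day 1. It gave 27 to 38 for control cells between days, 8 to 43 and 11 to 35 for the Jmjd2a and Jmjd2c labels between days, and 36 to 42 and 35 to 41 for the difference between the days. Where this left 1 array in a group, that array was assumed to vary like the other groups. With the replicate number as a block the counts were 31 and 31 at day 3, 35 and 37 at day 1, 36 for control cells, 29 and 27 for the labels between days, and 41 and 39 for the difference between the days. Same-numbered arrays correlated at -0.072, -0.073 and 0.051 at day 3, and at 0.035, 0.092 and 0.392 at day 1. Taking the mean of all probe sets of a gene turned Pold1 to 0.25 and 0.22 at day 3, from its other probe set. Called without each array in turn were 21 and 18 genes at day 3, 8 and 15 at day 1, and 36 and 34 for the difference between the days. Signal near background limits Tyms.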

Other observations

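Several genes had more than 1 probe set, and the dimmer one often moved further. In control cells between day 3 and day 1, Mcm5 changed by -0.38 on its brightest probe set (mean level 11.70) and by -0.83 on the next (mean level 10.07, adjusted p = 0.00017). Slbp changed by -0.53 on the brightest and by -1.05 on another (mean level 7.09, adjusted p = 0.00043). Cdt1 changed by -1.03 and -1.46, and Mcm2 by -1.18 and -1.41. In the other direction, Orc1 changed by -1.17 on the brightest and by -0.2 on its other probe set. E2f1 changed by -0.88 on the brightest and by 0.2 on its dimmest (adjusted p = 0.5). Fen1 and Rfc4 did not pass on their brightest probe sets (-0.08 and -0.16) but did on another (-0.38 and -0.27, adjusted p = 0.027 and 0.022). Of the 56 other probe sets of 36 genes, 26 passed in control cells together with the brightest and in its direction, and 22 did not pass where the brightest did. Another 3 passed where the brightest did not, and for 5 neither passed. Against control, 20 (Jmjd2a) and 21 (Jmjd2c) passed with the brightest at day 3, while 22 and 19 did not where it did. At day 1 these counts were 14 and 17, against 19 and 19. Between the days under each label they were 7 and 10, against 16 and 13.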
